A study of Mus musculus with 48 samples.

Results

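PyMT-N and PyMT-M are mouse breast tumour cell lines grown in culture, and their RNA was compared across all genes. The comparison rests on 6 of the 48 libraries of the series, 3 of PyMT-N and 3 of PyMT-M, chosen by their labels and by the matching columns of the deposited count table, and on the 18348 of its 24054 genes that passed a filter on low counts. The table's column names carry the suffix Epi for PyMT-N and Mes for PyMT-M, which the labels do not spell out. The columns of PyMT-N bear another name than its titles and were assigned to it since every other column names another line. Both lines are labelled C57BL/6, were grown in high-glucose DMEM with fetal bovine serum and antibiotics, and carry no treatment label. PyMT-N was at passage 14 and PyMT-M at passage 7, so passage and line cannot be told apart. The labels do not say how either line was derived, whether a line is 1 clone, or whether the 3 libraries of a line came from separate cultures, so p-values measure the spread between these libraries, which may be technical. The other groups used are E0771 (C57BL/6, passage 14), AT3 (C57BL/6, passage 15), and the BALB/C lines 4T1, 67NR, 2208L and T11, with 3 libraries each. For 67NR a passage later than that of AT3 is labelled, and for 4T1, 2208L and T11 none. Sorted myeloid cells of the same series were not used here.

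Total counts ran from 4073453 to 6262942 in PyMT-N and from 2844038 to 3915922 in PyMT-M. The ribosomal RNA precursor Rn45s took 7.14% to 9.17% of the counts in PyMT-N, and 5.577%, 6.125% and 14.199% in PyMT-M, the highest share in PyMT-M library 1. In a chi-square of raw counts, Rn45s included, that library stood apart from libraries 2 and 3, at 10.9 and 15.4 per degree of freedom. The other pairs within the lines stood at 1.41 to 3.1. Lars2, also included, took 17.625% of its counts against 13.424% and 11.365% in libraries 2 and 3. Correlations of log2 CPM did not set it apart, at 0.975 with each against 0.973 between libraries 2 and 3. Calls were recomputed without it. Levels are in CPM, total-scaled counts adjusted with TMM factors, which align the bulk of genes between libraries. Xist, the RNA of the silenced X chromosome, stood at 657, 664 and 628 CPM in the PyMT-N libraries and at 5.87, 6.3 and 9.25 in those of PyMT-M, and 8 of 8 Y-linked genes looked up had 0 counts in all 6 libraries. PyMT-M was close to E0771: 1230 of 18348 genes differed (6.7%), with 476 higher (2.59%) and 754 lower (4.11%) in E0771, against 8184 between PyMT-N and PyMT-M (44.6%). These E0771 counts rested on single libraries. Without PyMT-M library 2 they were 274 higher and 431 lower, and without PyMT-M library 1 they were 309 and 387. They were 298 and 452 without E0771 library 3, and the lower count was 315 without E0771 library 1.

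Epithelial cells are joined into sheets by E-cadherin junctions, desmosomes and tight junctions, carry keratin filaments, and sit on a basement membrane through laminin-binding integrins. Mesenchymal cells instead carry vimentin filaments, lie in a matrix of fibrillar collagen, and express transcription factors of the Zeb, Snail and Twist families that repress epithelial genes. Breast tumour lines are often described along this axis. The comparison asked how far 2 lines of 1 name and strain lie from each other along it, and which other programmes differ.

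A gene was called higher or lower at a Benjamini-Hochberg adjusted p below 0.05 in the quasi-likelihood test of edgeR, fitted to all 24 libraries of the 8 lines. Relative to PyMT-M, PyMT-N had 4491 genes with higher levels (24.5%) and 3693 with lower ones (20.1%), and the median log2 difference over all genes tested was -0.06. These shares are the background against which each gene list below is to be read. Differences of at least 8-fold (3 on the log2 scale) were more frequent upward: 554 of the higher genes and 224 of the lower genes reached this size. The balance between higher and lower calls depended on the scaling. With totals outside Rn45s in place of TMM factors 3120 genes were higher and 6237 lower, the median of all genes moved by -0.29, and the share of calls that were higher moved from 54.9% to 33.3%. Leaving AT3 library 3 out of the fit also turned the balance, to 4098 higher and 4372 lower. The sizes given below are on the TMM scale, and the small ones should be read against this shift. Calls followed depth: among genes of 1 to 4 CPM 5.2% were higher and 8.06% lower, and among those of 16 to 64 CPM 36.5% and 28.6%. A bulk library cannot tell fewer cells with a transcript from less of it in each cell.

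Genes were ranked among those called, with a mean log2 CPM of at least 4 over the 24 libraries and no overlap between the PyMT libraries. The largest differences upward included keratins, matrix proteins and a transcription factor. Krt7, a keratin of simple epithelia (EntrezGene 110310, GRCm38 chromosome 15, 101412403 to 101427806), stood at 1700, 1710 and 1710 CPM in the PyMT-N libraries and at 0.927, 1.75 and 2.64 in PyMT-M. Thbs1, the matrix glycoprotein thrombospondin 1, stood at 1770, 2160 and 2330 CPM against 5.25, 5.25 and 4.29. Sox4, a transcription factor of progenitor cells, stood at 182, 229 and 225 CPM against 0.309, 1.4 and 0. That the libraries of the lines lie apart was a condition of this choice and adds no evidence. The share of all genes without overlap was not counted, so a lack of overlap named here or below sets no gene apart. The log2 differences were 9.90 ± 0.17 (SE, n = 3 and 3) for Krt7, 8.71 ± 0.15 for Thbs1 and 8.51 ± 0.25 for Sox4 (edgeR adjusted p = 5.87e-65, 5.15e-65 and 2.11e-48). Standard errors of log2 differences are taken from the F statistic here and below. PyMT-M had 16 counts for Krt7 and 5 for Sox4, and for such genes these standard errors understate the counting error. The other genes among the 12 largest within this level limit were the prostaglandin synthase Ptgs2 (9.69), Krt18 (8.93), the luminal surface glycoprotein Cd24a (8.14), the desmosomal p53 target Perp (7.83), the TGF-beta feedback protein Pmepa1 (7.64), the insulin-like growth factor binding protein Igfbp7 (7.56), fibronectin Fn1 (7.40), the membrane protein Basp1 (7.37) and the tetraspanin Cd81 (7.30).

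Under the same rule the 12 largest differences downward held matrix genes, regulators, and genes without any count in PyMT-N. Col6a1, a chain of collagen VI (chromosome 10, 76708792 to 76726044), stood at 3.42, 2.55 and 3 CPM against 312, 290 and 245 (log2 -6.52 ± 0.15). Trim35, a RING-domain protein, stood at 2.82, 1.6 and 2 CPM against 175, 164 and 160 (-6.20 ± 0.18). Id2, an inhibitor of basic helix-loop-helix transcription factors, stood at 1.81, 1.92 and 1.5 CPM against 59.3, 60.9 and 66.7 (-5.14 ± 0.22, adjusted p = 4.54e-37). Here too the absence of overlap was required by the rule. Col3a1 (-5.78), the matrix protein Emilin2 (-5.30), and the X-linked Nxf3 (-5.73) and Zfp275 (-5.27) belonged to the same group. The remaining 5, Plaa, Mtap, Jun, Mysm1 and Ift74, lie on chromosome 4 and had 0 counts in all PyMT-N libraries.

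**Figure D1:**
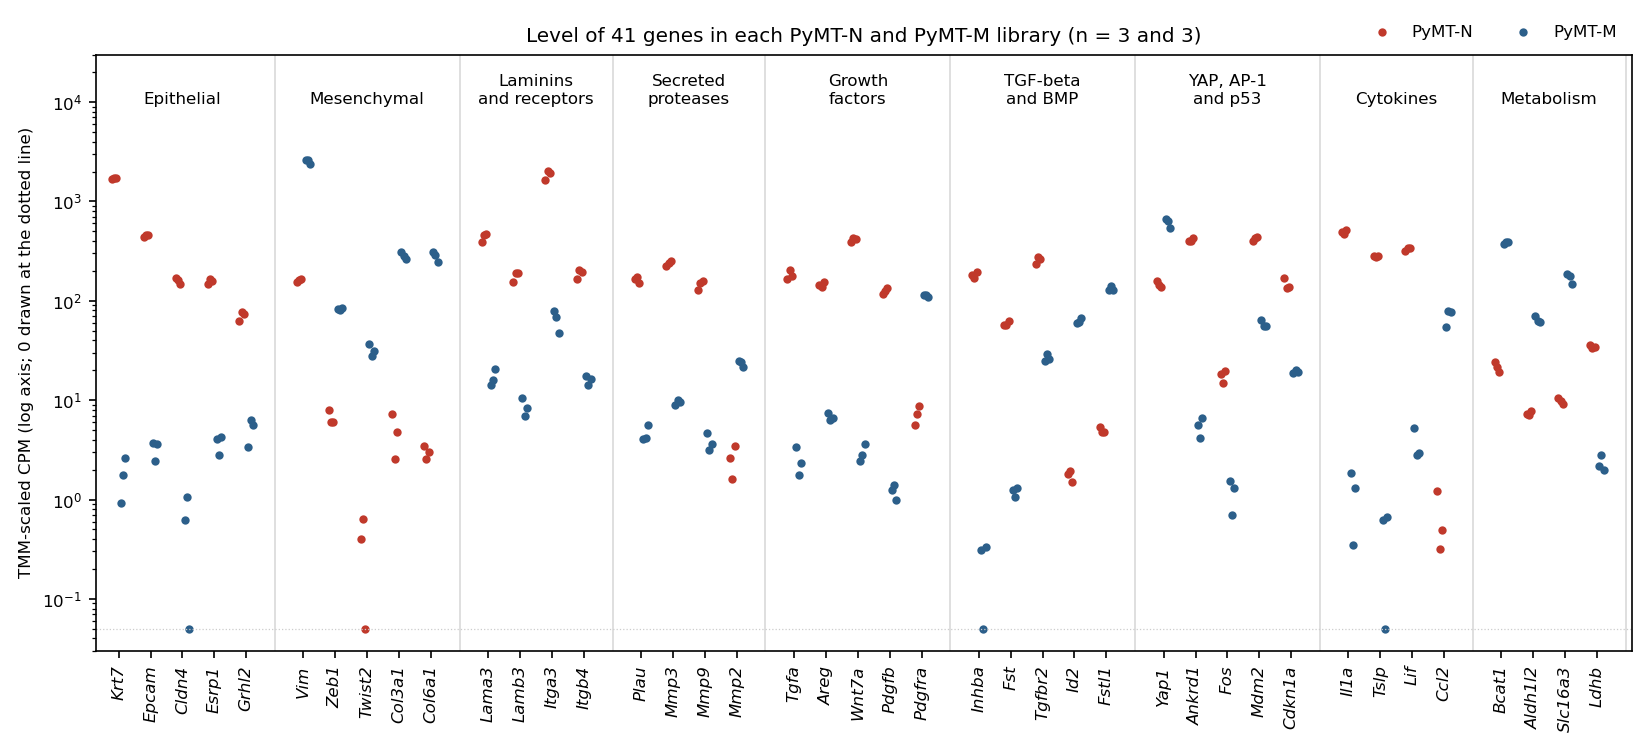
Levels of 41 genes in each library, in TMM-scaled CPM on a log axis, grouped by role; each point is 1 library, red for PyMT-N and blue for PyMT-M, and a level of 0 is drawn at the dotted line. The 3 libraries of a line lie close together beside the gap between lines: Krt7 reached at most 2.64 CPM in PyMT-M and at least 1700 in PyMT-N, and Vim at most 166 in PyMT-N and at least 2390 in PyMT-M.

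Several simple-epithelial keratins and many junction genes were higher in PyMT-N. Of 17 keratins tested 7 were higher in PyMT-N, none was lower and 10 did not pass, with a median log2 difference of 0.17 (-0.12 with totals outside Rn45s). The 7 were led by the simple keratins Krt7, Krt18, Krt19 (111, 116 and 131 CPM against 1.85, 0.35 and 0.991) and Krt8 (973, 1070 and 1050 CPM against 60.5, 61.9 and 65). Krt8 was thus retained at a lower level in PyMT-M, while its usual partner Krt18 stood at 2.47, 1.75 and 2.64 CPM there. The basal keratins Krt14 and Krt17 were higher in PyMT-N at low levels, 9.31 ± 2.55 and 9.56 ± 1.65 CPM (SD, n = 3) against 2.6 ± 0.742 and 2.1 ± 1.08. Summed over the list, keratins took 3930 to 4140 CPM in the PyMT-N libraries and 94.2 to 105 in PyMT-M.

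Among tight junction and polarity genes 20 of 26 were higher and 1 was lower, with a median of 2.80. The lower gene was not called without PyMT-N library 3 or PyMT-M library 1. Cldn3, a sealing claudin (chromosome 5, 134986214 to 134987476), had 2852 counts against 1, a ratio of 2150 with a 95% counting interval of 385 to 84900. Cldn4 stood at 168, 161 and 147 CPM against 0.618, 1.05 and 0, and Cldn7 at 147, 158 and 164 against 0.927, 0.35 and 1.65. The tricellular junction protein Lsr stood at 197 ± 6.29 CPM against 3.52 ± 0.392. The scaffold Tjp1, ZO-1, differed less, at 261 ± 12.2 CPM against 140 ± 15.6 (log2 0.90 ± 0.09). Of 26 adherens junction and desmosome genes 19 were higher and 3 lower, with a median of 2.07. Epcam, an adhesion molecule of epithelia, stood at 438, 458 and 462 CPM against 3.71, 2.45 and 3.63, and Cdh1, E-cadherin, at 410, 477 and 478 against 6.79, 4.55 and 7.26. The desmosomal linkers Dsp (152 ± 18.2 against 8.07 ± 1.24 CPM) and Jup (168 ± 19.5 against 12.5 ± 1.76) were higher too. N-cadherin, Cdh2, commonly taken as a mesenchymal marker, was also higher in PyMT-N, at 158, 192 and 185 CPM against 3.4, 3.85 and 1.98. The lower members were other cadherins: Cdh13, which lacks the cytoplasmic tail, at 2.63 ± 0.504 CPM against 53.8 ± 6.72, and at lower levels Cdh11 and Cdh4. The call on Cdh11 was lost without PyMT-N library 3 (log2 -0.67), PyMT-M library 1 (-0.97) or PyMT-M library 2 (-0.99). That on Cdh4 was lost without PyMT-N library 1 (-0.69) or 2 (-0.63) and without PyMT-M library 2 (-0.56) or 3 (-0.65), and also with DESeq2 (-0.74), its size factors in edgeR (-0.73), no low-count filter (-0.73) and the replicate number as a block (-0.72). Over the list, 1 gene was lower without PyMT-M library 2, and 5 with totals outside Rn45s.

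The repressors of the Zeb and Snail families bind the E-box letters CACCTG, and promoters of epithelial genes are known sites of this control. The 250 bases before the annotated start are shown for Epcam, Cldn4 and Krt7, because these genes were among those furthest apart and their windows hold the letters. Sequences are from RefSeq on GRCm38.p6, written 5′ to 3′ on the strand of the gene, and capitals mark CACCTG or its reverse complement CAGGTG. The windows are chr17:87635729-87635978 on the plus strand for Epcam, chr5:134946935-134947184 on the minus strand for Cldn4 and chr15:101412153-101412402 on the plus strand for Krt7.
Epcam: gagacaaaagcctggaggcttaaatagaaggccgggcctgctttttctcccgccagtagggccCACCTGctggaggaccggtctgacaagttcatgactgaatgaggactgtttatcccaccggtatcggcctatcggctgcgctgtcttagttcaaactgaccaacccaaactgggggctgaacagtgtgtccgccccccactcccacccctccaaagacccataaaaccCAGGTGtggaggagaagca
Cldn4: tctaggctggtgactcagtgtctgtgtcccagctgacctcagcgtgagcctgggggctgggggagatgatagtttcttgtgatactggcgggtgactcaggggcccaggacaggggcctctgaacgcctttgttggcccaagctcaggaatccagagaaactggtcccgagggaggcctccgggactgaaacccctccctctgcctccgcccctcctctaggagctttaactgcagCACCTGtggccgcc
Krt7: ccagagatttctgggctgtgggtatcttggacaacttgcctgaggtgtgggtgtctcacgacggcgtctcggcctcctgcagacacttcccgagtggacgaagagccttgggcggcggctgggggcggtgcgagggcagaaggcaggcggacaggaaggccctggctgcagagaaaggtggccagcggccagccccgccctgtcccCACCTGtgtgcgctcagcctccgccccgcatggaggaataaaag
The matches begin 187 and 19 bases before the start in Epcam, 14 in Cldn4 and 44 in Krt7. The window of Cldn3 holds no match, and 1 of the windows of Cldn7 holds a pair. Of the 52 junction genes of both lists 28 had an entry, with 42 windows, and 18 of these windows held the letters on either strand. The letters stood in 17.2% of all 32851 windows. A match describes the letters and was not tested as a binding site.

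Factors of epithelia that passed were higher in PyMT-N (with totals outside Rn45s 1 was lower), while those of mesenchyme went both ways. Of 21 epithelial factors 15 were higher in PyMT-N, none was lower, and the median was 1.79. Esrp1, which directs epithelial splicing, stood at 148, 164 and 160 CPM against 4.02, 2.8 and 4.29, and the RNA-binding Rbm47 at 112, 133 and 124 against 3.4, 2.45 and 2.64. Grhl2, an activator of junction genes, stood at 63, 76.6 and 74.4 CPM against 3.4, 6.3 and 5.61, and Gata3, a luminal regulator, at 53.5, 46.6 and 49.9 against 1.24, 0.7 and 1.65. For all 4 the libraries of the lines did not overlap, a trait whose share over all genes was not counted. Trp63, a regulator of basal cells (log2 -0.50 ± 0.30, edgeR adjusted p = 0.188), and Elf5, of alveolar cells (-0.12 ± 0.59, adjusted p = 0.898), did not pass.

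Of 25 mesenchymal transcription and splicing factors 12 were higher in PyMT-N, 6 lower and 7 did not pass, with a median of 0.35. The lower genes included both Zeb repressors, Zeb1 at 8.05, 6.07 and 5.99 CPM against 83.1, 81.2 and 85.2, and Zeb2 at 26, 25.5 and 31.5 against 129, 126 and 135. Twist2 stood at 0.402, 0.639 and 0 CPM against 36.8, 27.6 and 31, and Tbx3, a T-box factor of the mammary bud, at 2.01, 0.639 and 0.25 against 67.3, 53.9 and 45.9. In the other direction Snai2 stood at 11.9 ± 2.52 CPM against 1.86 ± 0.116, Foxc2 at 15.3 ± 1.11 against 1.87 ± 0.564, and the chromatin protein Hmga2 at 903 ± 21 against 114 ± 4.01. Snai1 did not differ detectably (18.6 ± 3.12 against 18.9 ± 2.79 CPM, log2 0.00 ± 0.18, adjusted p = 0.994). Vim, the vimentin filament, stood at 153, 161 and 166 CPM against 2590, 2600 and 2390 (log2 -3.98 ± 0.10).

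**Figure D2:**
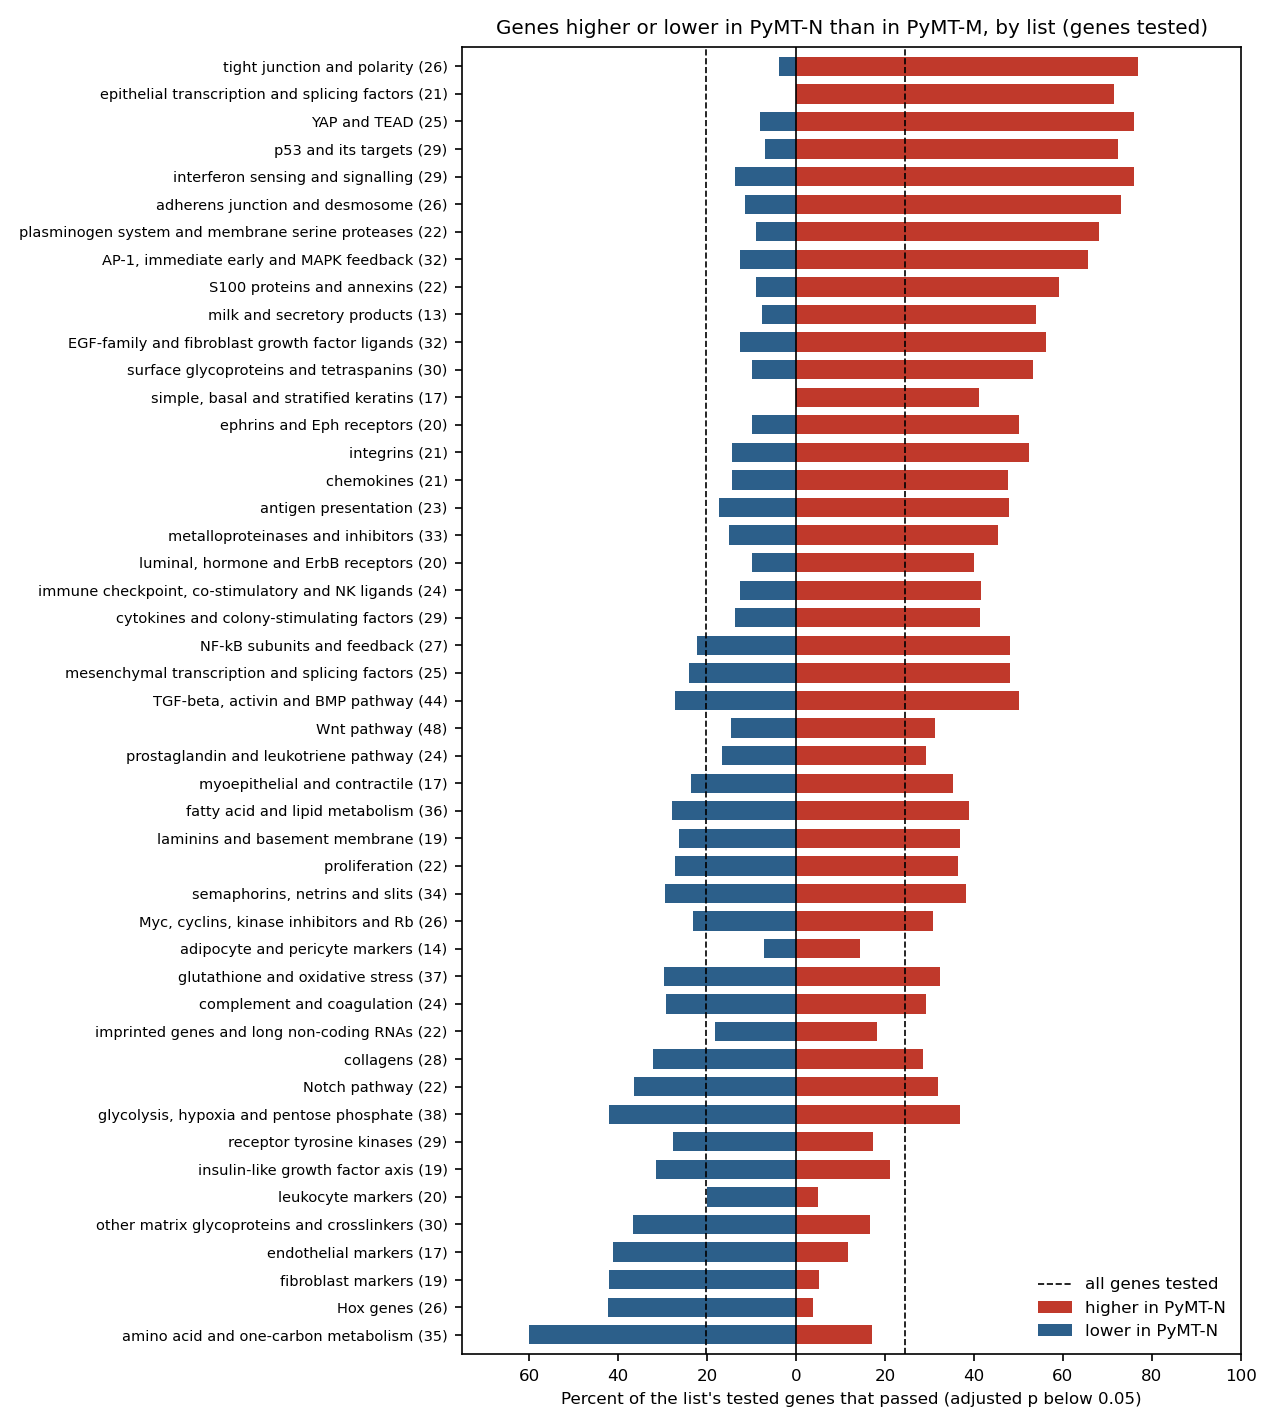
Share of the tested genes of each list that were higher (red, right) or lower (blue, left) in PyMT-N than in PyMT-M, in percent, with the number of genes tested in brackets. Dashed lines mark the shares over all genes tested, 24.5% and 20.1%; tight junction genes lie furthest right and amino acid genes furthest left.

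The laminin chains Lama3 and Lamb3, of the anchor of stratified and glandular epithelium, were higher in PyMT-N. Lama3 stood at 395, 458 and 470 CPM against 14.2, 16.1 and 20.8, and Lamb3 at 153, 192 and 192 against 10.5, 7 and 8.26. The libraries of the lines did not overlap for either chain, and the share of all genes without overlap was not counted. Laminin-binding integrins moved the same way: Itga3 stood at 1870 ± 183 CPM against 64.8 ± 16.1, Itgb4 at 189 ± 19.2 against 16.2 ± 1.66, and Itga6 at 676 ± 61.4 against 327 ± 23.2. Lamc1, a chain of the widespread laminins, was lower, at 162 ± 12.6 CPM against 295 ± 52.7, and so was nidogen 1, Nid1, at 78.7 ± 8.62 against 160 ± 28.9. Over the list of 19 laminin and basement membrane genes 7 were higher and 5 lower, which became 7 and 8 with totals outside Rn45s, and 3 were lower without PyMT-M library 3. Of 21 integrins 11 were higher and 3 lower (median 0.72), or 5 lower with totals outside Rn45s. Itga2, a collagen receptor, stood at 348, 386 and 358 CPM against 7.1, 3.5 and 4.95. The fibronectin receptor chain Itga5 did not pass (75 ± 5.63 against 77.2 ± 11.1 CPM), although Fn1 itself stood at 2140, 2620 and 2650 CPM against 17, 12.6 and 13.9. The other collagen receptor Itga1 (6.48 ± 0.874 against 18.6 ± 0.368 CPM) and the leukocyte-type chain Itgb7 (2.74 ± 1.2 against 52.2 ± 9.79) were lower.

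Of 28 collagens 8 were higher and 9 lower, or 14 lower with totals outside Rn45s. The 3 main chains of collagen VI were all lower in PyMT-N: beside Col6a1, Col6a2 stood at 2.95 ± 0.919 CPM against 94.3 ± 14 and Col6a3 at 7.75 ± 1.86 against 123 ± 19.2. Fibrillar collagens followed, with Col3a1 at 7.24, 2.55 and 4.74 CPM against 309, 285 and 262, Col5a1 at 12.5, 12.1 and 15.7 against 272, 253 and 193, and Col1a1 at 4.63, 6.39 and 2.5 against 57.4, 52.8 and 36.7. Col1a2, the partner chain of Col1a1, did not pass (9.14 ± 1.04 against 11.8 ± 1.88 CPM, adjusted p = 0.162). The higher collagens were of other classes: Col8a1, a network-forming collagen, at 452, 443 and 448 CPM against 3.09, 1.75 and 4.62, Col7a1, of anchoring fibrils, at 355 ± 19.1 against 54.1 ± 3.54, and Col4a5, of basement membranes, at 46.2 ± 2.22 against 2.61 ± 0.79. Among 30 other matrix glycoproteins and crosslinkers 5 were higher and 11 lower. The 5 were Thbs1, Fn1, Tnc (tenascin C, 2310, 2970 and 2830 CPM against 25.9, 24.8 and 17.5), Bgn (biglycan, 50.5 ± 1.22 against 2.08 ± 0.0918) and Spp1 (osteopontin, 1210 ± 69.7 against 77.3 ± 8.46). Lower members included Sparc (155 ± 2.79 against 525 ± 64.5 CPM), the crosslinker Loxl2 (1.58 ± 0.17 against 31.6 ± 5.06) and Emilin2. The summed level of this list was 8000 to 9560 CPM against 1210 to 1400.

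Urokinase, its receptor and the inhibitors named here were higher in PyMT-N. Of 22 genes of the plasminogen system and of membrane serine proteases 15 were higher and 2 lower, with a median of 3.76. Plau, urokinase, stood at 164, 175 and 151 CPM against 4.02, 4.2 and 5.61, and its receptor Plaur at 155, 163 and 164 against 41.7, 48.3 and 30.7. The inhibitors Serpinb2 and Serpine2 were higher as well: Serpinb2 stood at 587, 608 and 639 CPM against 2.78, 1.4 and 2.64 and Serpine2 at 228 ± 7.27 against 1.43 ± 0.209. St14, the epithelial protease matriptase, stood at 229 ± 20.7 CPM against 11 ± 3.41. Its inhibitors Spint1 (62.5 ± 2.34 against 2.82 ± 0.818 CPM) and Spint2 (253 ± 6.99 against 10.4 ± 2.6) were higher as well. Tissue plasminogen activator, Plat, went the other way by a small amount (24.5 ± 3.97 against 31.7 ± 1.73 CPM, log2 -0.38 ± 0.15, adjusted p = 0.0269). This call was lost without PyMT-N library 1 (-0.38) or 3 (-0.26), without PyMT-M library 1 (-0.34) or 2 (-0.37), and with DESeq2.

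Among 33 metalloproteinases and their inhibitors 15 were higher and 5 lower (median 0.27). With totals outside Rn45s 12 were higher and 9 lower (median -0.02), and 3 were lower without PyMT-N library 3 or PyMT-M library 2. Of the metalloproteinases encoded together on chromosome 9, Mmp3, Mmp13, Mmp10 and Mmp1b (21.2 ± 4.76 against 5.04 ± 1.35 CPM) were higher. Mmp12, Mmp1a, Mmp8, Mmp27, Mmp20 and Mmp7 were lower, all at mean levels from 0.973 to 8.09 CPM in both lines. These are more than the lower genes counted in the list, so some stand outside it and its balance leaves them out. Mmp3 stood at 224, 240 and 251 CPM against 8.96, 10.1 and 9.58, Mmp13 at 141, 127 and 139 against 6.79, 7 and 8.26, and Mmp10 at 58.6, 54.3 and 63.4 against 7.1, 5.6 and 5.94. Mmp9, a gelatinase, stood at 146 ± 17.3 CPM against 3.8 ± 0.757, and Adam12, a membrane-bound sheddase, at 189 ± 8.11 against 3.61 ± 0.368. The other gelatinase, Mmp2, was lower in PyMT-N, at 2.62, 1.6 and 3.49 CPM against 24.7, 24.1 and 21.5. The inhibitors Timp1 (92.3 ± 9.48 against 16.9 ± 2.84 CPM) and Timp3 (70.1 ± 5.74 against 2.39 ± 0.559) were also higher in PyMT-N.

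The EGF-family ligands Tgfa, Areg and Hbegf and the receptor Egfr were higher in PyMT-N. Of 32 EGF-family, fibroblast, platelet-derived and vascular growth factors 18 were higher and 4 lower (median 0.90), and 2 lower without PyMT-N library 2 or PyMT-M library 1 or 2. Tgfa, a ligand of the EGF receptor, stood at 167, 203 and 176 CPM against 3.4, 1.75 and 2.31. Areg, amphiregulin, stood at 143, 137 and 153 CPM against 7.41, 6.3 and 6.6, and Hbegf at 385, 373 and 375 against 21.6, 25.9 and 24.8. Ereg was higher by less, 124 ± 11.8 CPM against 36.5 ± 1.49, and Nrg1, the ligand of Erbb3, stood at 32.6 ± 5.21 against 2.29 ± 0.431. The receptor Egfr stood at 194, 207 and 229 CPM against 40.5, 36.4 and 35, Erbb3 at 33 ± 5.15 against 6.69 ± 0.373, and Erbb2 at 62.7 ± 4.25 against 40.9 ± 7.64.

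The platelet-derived growth factor family was divided between the lines. The ligand Pdgfb stood at 118, 125 and 136 CPM against 1.24, 1.4 and 0.991. Its receptors went the opposite way, Pdgfra at 5.63, 7.34 and 8.74 CPM against 115, 115 and 109, and Pdgfrb at 6.04, 6.71 and 5.49 against 55, 49 and 39.6. Of 29 receptor tyrosine kinases 5 were higher and 8 lower, and without PyMT-M library 1 the balance turned to 6 and 5. Axl, the Gas6 receptor (1460 ± 72.4 against 410 ± 40.6 CPM), and Ret (123 ± 16.9 against 8.15 ± 2.59) were higher, while the collagen receptor Ddr2 was lower (28.7 ± 3.5 against 243 ± 24.5). Met, the receptor of hepatocyte growth factor, did not pass (344 ± 10.9 against 362 ± 20.4 CPM, adjusted p = 0.523). Of 20 ephrins and Eph receptors 10 were higher and 2 lower (1 lower in a fit to the 6 libraries alone), the higher ones including Epha2 (742 ± 67.2 against 90.2 ± 16.3 CPM), Epha4 (178 ± 8.63 against 5.82 ± 0.703) and the ligand Efnb2 (60.2 ± 2.29 against 3.52 ± 0.623).

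Wnt proteins signal through Frizzled receptors to beta-catenin, whose target Axin2 is a common readout. Of 48 genes of the pathway 15 were higher, 7 lower and 26 did not pass, with a median of 0.15 (-0.09 with totals outside Rn45s). The ligands furthest apart were higher in PyMT-N: Wnt7a (chromosome 6, 91363981 to 91411353) stood at 388, 430 and 421 CPM against 2.47, 2.8 and 3.63, Wnt10a at 173, 203 and 200 against 2.16, 2.1 and 2.64, and Wnt7b at 501, 533 and 528 against 38.9, 41.3 and 35.3. Frizzled receptors were higher at lower levels, for instance Fzd6 at 41.7 ± 2.93 CPM against 3.9 ± 2.11. None of the target genes and nuclear factors named here was higher. Axin2 stood at 0.805, 0.958 and 1.5 CPM against 3.09, 2.45 and 2.31 (log2 -1.26 ± 0.48, edgeR adjusted p = 0.0259), a call lost without PyMT-N library 1 (-1.04) or 2 (-1.20) or PyMT-M library 1 (-1.12), and Tcf7 at 5.84, 4.47 and 5.49 against 16.7, 16.8 and 13.2. Lef1 (1.76 ± 0.42 against 2.48 ± 1.24 CPM) and Lgr5 (2.49 ± 1.03 against 3.72 ± 0.572) did not pass. The levels of Axin2 and Lef1 lie in the range of olfactory and vomeronasal receptor genes, which are silent in most tissues and are taken up with the other cell types below, and that of Lgr5 lies slightly above it.

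TGF-beta and activin signal through Smad2 and Smad3, and bone morphogenetic proteins through other Smads that induce Id genes. Of 44 genes of these pathways 22 were higher, 12 lower and 10 did not pass, with a median of 0.31. Inhba, the activin A subunit (chromosome 13, 16004256 to 16031609), had 2208 counts against 2, a ratio of 832 with a 95% counting interval of 230 to 6870. Its antagonist Fst, follistatin, stood at 57, 57.5 and 63.2 CPM against 1.24, 1.05 and 1.32. The signalling receptors Tgfbr1 (137, 132 and 144 CPM against 21.6, 22.7 and 22.8) and Tgfbr2 (234, 276 and 265 against 25, 29.4 and 25.8) were higher, while the co-receptor Tgfbr3 was lower (7.49 ± 0.976 against 52.4 ± 0.186). Smad3 stood at 264 ± 15.5 CPM against 49.8 ± 10.4, and the feedback genes Smad7 and Pmepa1 at 123 ± 7.87 against 48.9 ± 8.48 and 289 ± 25.6 against 1.46 ± 0.861. The TGF-beta ligands were lower: Tgfb1 stood at 28.3 ± 3.85 CPM against 43.5 ± 1.94, Tgfb2 at 2.37 ± 1.27 against 10.7 ± 1.7, and Tgfb3 at 11.1 ± 1.7 against 17.3 ± 3.27. Id1 (19.1, 18.8 and 16.2 CPM against 91.1, 95.5 and 102) and Id3 (70.6 ± 10.4 against 130 ± 12.5) were lower with Id2. Fstl1, a secreted follistatin-like protein, stood at 5.43, 4.79 and 4.74 CPM against 128, 140 and 127. Id4 went the other way, with 50 counts in PyMT-N against 3, a ratio of 12.6 (95% counting interval 4.06 to 63).

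YAP is a co-activator held out of the nucleus by the Hippo kinases. With TEAD factors it drives Ctgf, Cyr61 and Ankrd1. The gene Yap1 (chromosome 9, 7931999 to 8004638) was lower in PyMT-N, at 158, 143 and 139 CPM against 664, 631 and 536 (log2 -2.06 ± 0.10), and so was Tead2 (37.4 ± 1.64 against 95.8 ± 4.76 CPM). The target genes were higher: Ctgf stood at 527, 594 and 584 CPM against 16.7, 9.45 and 12.9, Cyr61 at 772, 821 and 858 against 40.2, 31.8 and 32.4, and Ankrd1 at 401, 403 and 425 against 5.56, 4.2 and 6.6. The level of the gene and the levels of these targets differed in opposite directions. Of 25 genes of the list 19 were higher and these 2 lower (median 1.19; 5 were lower with totals outside Rn45s), the higher ones including the angiomotins Amot (78 ± 6.61 against 1.53 ± 0.466 CPM) and Amotl2 (214 ± 19.9 against 41.7 ± 2.47), the cofactor Vgll3 (52.6 ± 6.05 against 1.53 ± 1) and Tead1 (177 ± 4.48 against 72.4 ± 8.98).

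TEAD factors bind the letters GGAATG, and the windows before the starts of Cyr61 and Ankrd1 are shown because these targets differed in the direction opposite to Yap1 and their windows hold the letters. Capitals mark GGAATG or its reverse complement CATTCC. The windows are chr3:145649986-145650235 on the minus strand for Cyr61, listed in RefSeq as Ccn1, and chr19:36119845-36120094 on the minus strand for Ankrd1, on GRCm38.p6.
Cyr61: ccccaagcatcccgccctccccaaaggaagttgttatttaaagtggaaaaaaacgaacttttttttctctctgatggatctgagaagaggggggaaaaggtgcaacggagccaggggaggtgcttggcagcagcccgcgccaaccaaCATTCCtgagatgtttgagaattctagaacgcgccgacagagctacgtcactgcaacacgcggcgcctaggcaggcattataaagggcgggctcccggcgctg
Ankrd1: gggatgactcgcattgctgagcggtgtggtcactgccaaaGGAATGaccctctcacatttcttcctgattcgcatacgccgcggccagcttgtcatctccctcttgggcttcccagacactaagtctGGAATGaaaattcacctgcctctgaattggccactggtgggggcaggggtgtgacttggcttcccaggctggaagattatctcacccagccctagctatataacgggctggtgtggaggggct
The match begins 103 bases before the start in Cyr61, and those of Ankrd1 at 210 and 123 bases. Of the 25 genes of the list 21 had an entry, with 26 windows, and 13 windows held the letters on either strand, against 12.6% of all 32851 windows. As with the E-box, these are descriptions of letters.

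Egr1, Fos and the ERK phosphatases were higher in PyMT-N, while Jun and Fosl1 were lower. Of 32 immediate early and MAPK feedback genes 21 were higher and 4 lower (median 0.79). Egr1 stood at 37.4, 36.4 and 38.9 CPM against 0.309, 0.7 and 0.991, and Fos at 18.5, 15 and 19.7 against 1.54, 0.7 and 1.32. The ERK phosphatase Dusp6 stood at 329 ± 20.7 CPM against 69.8 ± 2.5, and Dusp5 at 117 ± 8.29 against 21.3 ± 5.76. Among the partners in AP-1, Junb (152, 171 and 175 CPM against 33.4, 27.3 and 27.7) and Fosl2 (172 ± 16.2 against 56.4 ± 10.8) were higher. Jun itself had 0 counts in PyMT-N against 115, 108 and 89.2 CPM in PyMT-M, at least 420-fold lower with a floor of 3 counts over the 3 libraries, which covers counting error only. Fosl1 was also lower (2.53 ± 0.331 against 6.31 ± 3.92 CPM, adjusted p = 0.002), a call lost without PyMT-M library 2 (log2 -0.83).

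Mdm2 and Cdkn1a, targets of p53, were higher in PyMT-N. Of 29 genes of the list 21 were higher and 2 lower (median 0.77), and 1 lower without PyMT-N library 3 or PyMT-M library 3. Mdm2, the p53 ubiquitin ligase, stood at 400, 426 and 443 CPM against 64.6, 55.6 and 55.5, and the kinase inhibitor Cdkn1a at 168, 134 and 137 against 18.8, 19.9 and 19.2. Ccng1 (730 ± 42.5 against 96.8 ± 12 CPM), Plk2 (508 ± 58.5 against 69.4 ± 0.889) and Trp53inp1 (125 ± 7 against 7.79 ± 0.57) were further members. Trp53 itself differed by less, 181 ± 7.03 CPM against 133 ± 7.28 (log2 0.45 ± 0.10, and 0.15 and not called with totals outside Rn45s), and the proapoptotic target Bbc3 did not pass (log2 -0.07 ± 0.32, edgeR adjusted p = 0.894). Gdf15 was lower (2.42 ± 0.824 against 10 ± 2.71 CPM). The D-type cyclins exchanged: Ccnd1 stood at 1420, 1390 and 1430 CPM against 424, 394 and 351, Ccnd2 at 173, 188 and 197 against 877, 837 and 784, and Ccnd3 did not pass (66.2 ± 5.43 against 69.3 ± 10.2). Mki67 was higher (661 ± 59.7 against 184 ± 13.6 CPM), while Mcm5 (206 ± 22.1 against 351 ± 14.6) and Ccna2 (242 ± 10.3 against 384 ± 22.6) were lower. The balance of the proliferation list turned with the settings, with 8 of 22 higher and 6 lower on the TMM scale and 3 and 13 with totals outside Rn45s. They were 8 and 10 with TMM factors from genes of at least 16 CPM, and 6 and 7 without PyMT-M library 3.

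The cytokine furthest apart was Tslp, an alarm signal of epithelia. Of 29 cytokines and colony-stimulating factors 12 were higher and 4 lower (median 0.49), or 7 lower with totals outside Rn45s. Tslp, thymic stromal lymphopoietin, stood at 282, 278 and 282 CPM against 0.618, 0 and 0.66 (log2 9.22 ± 0.22, adjusted p = 1.53e-54). Il1a stood at 490, 471 and 516 CPM against 1.85, 0.35 and 1.32, Il23a, the p19 subunit of interleukin 23, at 157, 145 and 149 against 1.85, 0.7 and 2.31, and Il24 at 126, 125 and 132 against 2.78, 2.8 and 2.64. Lif, of the interleukin 6 family, stood at 318, 341 and 343 CPM against 5.25, 2.8 and 2.97. Il1b (log2 0.28 ± 0.47, adjusted p = 0.682) and Il6 (1.83 ± 0.84, adjusted p = 0.0677) did not pass, both at or below 2.42 CPM on average. The alarmin Il33 was lower at low levels (2.27 ± 0.846 against 8.71 ± 3.45 CPM). Among 21 chemokines 10 were higher and 3 lower (median 0.96). Cxcl16, a membrane-bound chemokine, stood at 285, 276 and 281 CPM against 2.47, 2.45 and 2.97. The monocyte chemokines, neighbours on chromosome 11, were lower, Ccl7 at 0.402, 0 and 0.749 CPM against 14.5, 15 and 13.2 beside Ccl2 at 1.21, 0.319 and 0.499 against 54.7, 79.1 and 77.9.

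Prostaglandin E2 is made from membrane lipid by a phospholipase, a cyclooxygenase and a terminal synthase. The first steps were higher in PyMT-N: Pla2g4a, the cytosolic phospholipase, stood at 139, 136 and 139 CPM against 12, 7 and 11.6, and Ptgs2 at 3040, 3460 and 3610 against 3.71, 5.6 and 2.97. Ptgs1 stood at 59.8 ± 3.74 CPM against 6.28 ± 0.719. The terminal synthases were lower, Ptges at 41.3, 40.9 and 32.2 CPM against 72.3, 74.9 and 62.4, and Ptges2 at 27.2 ± 0.035 against 56.7 ± 0.28. Slco2a1, a prostaglandin uptake carrier (416 ± 32.6 against 9.35 ± 0.999 CPM), and the exporter Abcc4 (244 ± 20.6 against 73 ± 8.46) were both higher, while the degrading enzyme Hpgd did not pass (1.46 ± 0.169 against 1.42 ± 0.493). Over the list of 24 genes 7 were higher and 4 lower, which became 6 and 7 with totals outside Rn45s.

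Sensors of foreign nucleic acid and carriers of interferon signals were higher in PyMT-N. Of 29 genes 22 were higher and 4 lower (median 1.20). The lower count was 0 without PyMT-M library 1 and 2 without PyMT-N library 1 or 3. The sensors Tlr3 (43.1, 49.5 and 40.4 CPM against 5.25, 4.2 and 6.93), Ifih1 (52.7, 58.8 and 56.4 against 10.2, 9.1 and 8.26) and Ddx58 (128, 154 and 153 against 32.4, 29.4 and 28.7) were higher. Downstream, Stat2 stood at 44.6 ± 3.41 CPM against 13.8 ± 1.86, Irf7 at 53.4 ± 10.9 against 3.21 ± 0.694, and Usp18, a feedback inhibitor, at 95.2 ± 16.6 against 7.15 ± 1.89. Of 23 antigen presentation genes 11 were higher and 4 lower (median 0.14, and -0.16 with totals outside Rn45s). H2-T23, a non-classical class I chain, stood at 58 ± 0.662 CPM against 1.76 ± 0.219, H2-K1 at 779, 772 and 783 against 60.5, 58.8 and 56.1, and B2m, the shared light chain, at 938 ± 130 against 348 ± 46. The peptide transporter Tap1 did not pass (35.1 ± 3.21 against 31.7 ± 4.4 CPM), and the proteasome subunit Psmb8 was lower (31.5 ± 5.29 against 43.1 ± 4.57), a call lost without PyMT-N library 3 (log2 -0.34) or PyMT-M library 2 (-0.34). Tnfaip3, which restrains NF-kB, stood at 238, 270 and 275 CPM against 8.03, 8.05 and 10.2, in a list of which 13 of 27 were higher and 6 lower (median 0.51), or 10 lower with totals outside Rn45s.

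Genes of amino acid synthesis and transport were lower in PyMT-N. Of 35 amino acid and one-carbon genes 21 were lower in PyMT-N and 6 higher (median -0.57). Bcat1, the cytosolic branched-chain transaminase (chromosome 6, 144993835 to 145076157), stood at 24.3, 21.4 and 19.2 CPM against 369, 387 and 387. Aldh1l2, of mitochondrial folate, stood at 7.24, 7.02 and 7.74 CPM against 70.7, 62.6 and 61.4. Targets of the stress factor Atf4 differed by less, with Asns at 125 ± 11.4 CPM against 366 ± 10.2, Psat1 at 153 ± 1.52 against 410 ± 26.5, the leucine carrier Slc7a5 at 111 ± 16 against 328 ± 62.3 and Atf4 itself at 178 ± 3.55 against 352 ± 5.43. Another member of that response, the cystine carrier Slc7a11, was higher in PyMT-N (25 ± 0.899 against 16.5 ± 1.55 CPM, not called with totals outside Rn45s, log2 0.30), and Ddit3 did not pass (adjusted p = 0.43).

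Of 38 glycolysis, hypoxia and pentose phosphate genes 14 were higher and 16 lower (median -0.12). The lactate exporter Slc16a3 stood at 10.5, 9.9 and 9.24 CPM against 187, 179 and 149, and the glucose carrier Slc2a3 at 5.43, 6.39 and 4.49 against 34.3, 27.6 and 34.7. The counterparts went the opposite way: the carrier Slc2a1 stood at 172 ± 14.3 CPM against 92.5 ± 8.14 and the hexokinase Hk2 at 270 ± 16.5 against 68.1 ± 10.6. Lactate dehydrogenase chains divided too, with Ldhb at 36, 33.5 and 34 CPM against 2.16, 2.8 and 1.98, and Ldha at 1840, 1900 and 1820 against 2900, 3180 and 3240. In the lipid list, whose balance was 14 higher and 10 lower of 36 and turned to 11 and 15 with totals outside Rn45s, the fatty acid binding protein Fabp5 stood furthest apart, at 74.1 ± 3.08 CPM against 0.982 ± 0.314. Fasn, Scd1 and Scd2, which make fatty acids, did not pass.

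Positional identity genes also differed. Of 26 Hox genes 11 were lower in PyMT-N and 1 higher (median -1.43). Hoxd8 stood at 0.201, 0.639 and 0.25 CPM against 20.4, 18.2 and 25.8. Its neighbour Hoxd9 had 2 counts in PyMT-N and 108 in PyMT-M, 71.7 times as many after scaling (95% counting interval 19.4 to 599), and Hoxc10 had 3 and 107, 47.3 times as many (15.8 to 233). Of 22 imprinted genes and long non-coding RNAs tested 4 were higher and 4 lower (median 0.06), no larger shares than over all genes. With totals outside Rn45s 7 were lower. Within this list the paternally expressed Peg3 stood at 93.4, 123 and 116 CPM against 0.927, 2.45 and 3.96. Among insulin-like growth factor genes, Igfbp7 and the clearance receptor Igf2r (314 ± 16.9 against 34.5 ± 3.64 CPM) were higher, while Igfbp6 was lower, at 0.604, 1.92 and 0.25 CPM against 47.6, 53.9 and 53.8. This list held 4 higher and 6 lower of 19.

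Markers of other cell types were checked. Of 19 fibroblast markers 8 were lower in PyMT-N and 1, Fbln2, was higher (2810 ± 228 against 206 ± 37.6 CPM), or 2 higher without PyMT-M library 3. The lower ones were collagens, the Pdgf receptors, Fbn1 and S100a4 (20.7, 19.8 and 25 CPM against 183, 238 and 227), while Dcn, Postn, Lum and Fap did not pass. The call on Fbn1 was lost without PyMT-N library 3 (log2 -0.44) or PyMT-M library 2 (-0.45). Of 17 myoepithelial and contractile genes 6 were higher and 4 lower (median 0.06), or 5 and 5 with totals outside Rn45s. Among them Acta2, smooth muscle actin, was lower (4.43, 2.87 and 3.25 CPM against 141, 158 and 135), and Tagln and Myh11 did not pass. Of 20 leukocyte markers 4 were lower and 1 higher. The lower count was 1 without PyMT-M library 3 and 2 in a fit to the 6 libraries alone, and the higher count was 2 without any 1 of the PyMT-N libraries. The list summed to 69.9 to 90.6 CPM against 61.2 to 74.6. Of 17 endothelial markers 7 were lower and 2 higher, with sums of 85.9 to 96.2 and 149 to 176 CPM. The lower count was 4 without any 1 of the PyMT-N libraries, without PyMT-M library 2, and with DESeq2. Of these sums Eng, a TGF-beta co-receptor, took 4.73 ± 1.34 CPM against 83.8 ± 16.1. The defining Ptprc (5.27 ± 1.92 against 10.3 ± 2 CPM) and Pecam1 (3.26 ± 0.247 against 5.45 ± 1.21) were lower in PyMT-N. The call on Pecam1 was lost without any 1 of the PyMT-N libraries (-0.69, -0.80 and -0.75) and without PyMT-M library 1 (-0.74) or 3 (-0.60). At this level 1452 olfactory and vomeronasal receptor genes summed to 746 to 976 CPM against 1090 to 1250. Of the 250 that were tested 20 were lower and 2 higher (median -0.45), and 95% of them lay at or below 2.32 CPM and 3.08 CPM in the lines, in the same order. The part of this background in calls on genes of a few CPM, such as Pecam1, the low Hox genes, Lef1 and Axin2, was not tested. Hormone receptors were low in both lines: Esr1 stood at 10.9 ± 1.63 CPM against 4.25 ± 0.601, and Pgr did not pass. Ghr, the growth hormone receptor, was an exception at 166 ± 8.53 against 4.55 ± 1.41. Of 13 milk and secretory genes tested 7 were higher and 1 lower, among them Lcn2 (70.4 ± 12.6 against 1.19 ± 0.304 CPM).

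The suffixes Epi and Mes also mark 4T1 and 67NR, and 2208L and T11, and the PyMT difference was set against the difference within each of these pairs, which share no library with it. In 4T1 4327 genes were higher than in 67NR (23.6%) and 4452 lower (24.3%). Of the genes higher in PyMT-N 1390 were also higher in 4T1, 31% of the first list and 32.1% of the second, and 1518, or 33.8%, were called the opposite way. Of the genes lower in PyMT-N 1220 were shared, 33% and 27.4%, and 857 were opposite. In 2208L 4168 genes were higher than in T11 (22.7%) and 3436 lower (18.7%). Here 2014 of the higher genes were shared, 44.8% of the PyMT list and 48.3% of the other, with 888 opposite, and 1050 of the lower genes, 28.4% and 30.6%, with 770 opposite. The test of the difference between pairs passed for 8754 genes (47.7%) against 4T1 and 67NR, 4818 more positive (26.3%) and 3936 more negative (21.5%) in the PyMT pair. Against 2208L and T11 it passed for 7290 (39.7%), 3775 (20.6%) and 3515 (19.2%). With totals outside Rn45s the first pair of counts turned to 2989 and 6925.

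Several of the largest such departures were turned around in the other pair. Cadm1, an adhesion molecule, stood at 203 ± 5.61 CPM in the first line and 1.42 ± 0.821 in the second, but at 5.42 ± 0.373 in 4T1 and 184 ± 8.8 in 67NR. The water channel Aqp5 did the same, with 183 ± 9.09 and 1.32 ± 0.579 CPM against 6.47 ± 1.57 and 167 ± 1.78. Aqp5 was lower in 2208L than in T11 by a small amount (90.8 ± 2.57 and 127 ± 10.2 CPM, log2 -0.49). The protocadherin Pcdh7 and the cytoskeletal linker Epb4.1l3 were also turned around in 4T1 and 67NR, and Scara3 and Zfp275 were the mirror image. Scara3 stood at 1.97 ± 0.51 CPM (PyMT-N), 47.3 ± 2.72 (PyMT-M), 42.7 ± 5.56 (4T1) and 1.82 ± 0.424 (67NR). Zfp275 stood at 3.88 ± 1.09, 148 ± 4.94, 68.7 ± 4.36 and 2.88 ± 0.691 CPM in the same lines. Ly6a, the stem cell antigen Sca-1, was highest in PyMT-N (527 ± 29 CPM) and lowest in 4T1 (1.42 ± 1.03). For Xist the lines with low levels were PyMT-M, E0771 (6.92 ± 2.81 CPM) and 4T1 (9.41 ± 2.47), while AT3 stood at 227 ± 38.5 and 67NR, 2208L and T11 stood at 361 ± 11.6, 1000 ± 23.6 and 660 ± 40. Sox4, at 0.569 CPM on average in PyMT-M, stood at 59.7 ± 1.75 CPM in 2208L and 45 ± 9.99 in T11. Ccbe1, which promotes lymphatic growth, and the guidance protein Flrt2 were higher in PyMT-N but lower in 2208L (7.56 ± 1.51 and 2.75 ± 1.8 CPM) than in T11 (30.2 ± 6.68 and 60.7 ± 7.17). Id2 was lower in PyMT-N but higher in 2208L (106 ± 16.4 CPM) than in T11 (47.5 ± 6.01).

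**Figure D3:**
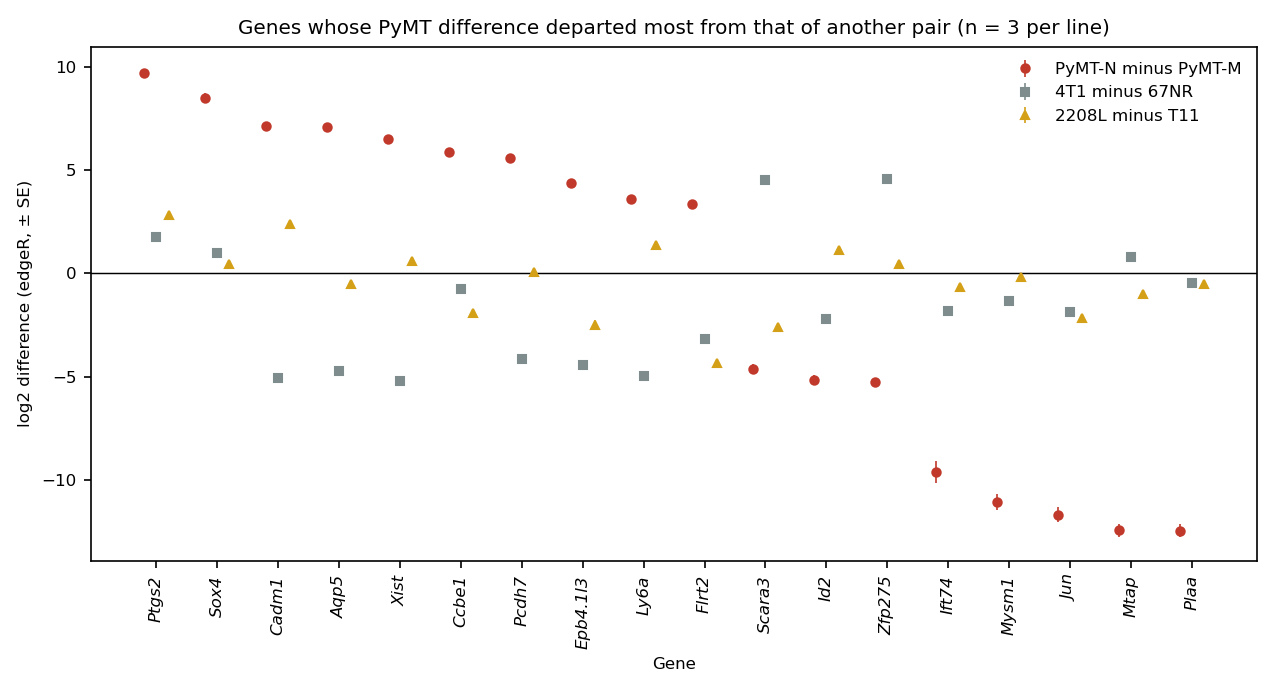
Log2 difference within each pair of lines (PyMT-N minus PyMT-M, 4T1 minus 67NR, 2208L minus T11) for genes whose PyMT difference departed most from another pair, with SE bars, mostly smaller than the symbols (n = 3 libraries per line). Cadm1, Aqp5, Xist and Pcdh7 lie above 0 in the PyMT pair and below 0 in the 4T1 pair, and the values of the 5 genes with 0 counts in PyMT-N are not bounds.

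Genes that set either line apart from all the others were counted next. PyMT-N exceeded each of the 7 other lines in 1559 genes (8.5%) and lay below each in 332 (1.81%), while 167 were higher (0.91%) and 43 lower (0.234%) in PyMT-M against each of its 7. The counts moved with the scaling: with totals outside Rn45s they were 682 and 1359 for PyMT-N and 82 and 101 for PyMT-M. The PyMT-M counts also rested on single libraries, with 104 and 24 without PyMT-M library 1, 99 and 18 without PyMT-M library 2, 80 and 26 without E0771 library 1 and 107 and 23 without E0771 library 3. Tnc was the gene furthest apart upward, at 2700 ± 345 CPM in PyMT-N against 74.7 in the next line, 2208L, and 17.6 in E0771, the lowest. For the borate transporter Slc4a11 (383 CPM), the focal adhesion protein Tns4 (700), the endothelial protein C receptor Procr (287), the orphan receptor Gprc5a (408) and Itga2 (364) the next line was 4T1, at 26.7, 72.6, 36.3, 70.9 and 65.1 CPM. For Ly6a it was 67NR, at 46.3 CPM. Downward, besides the chromosome 4 genes, Trim35 stood at 2.14 CPM in PyMT-N against at least 33 elsewhere, Id2 at 1.74 against at least 15.6, and the calcium-binding Rcn1 at 10.2 against at least 73.7.

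In PyMT-M the gene furthest apart upward was Yap1, at 610 CPM against 267 in E0771 and 74.9 in 67NR, the lowest line. Tacc1 (85.2 CPM), Ier5l (61.9), Dusp3 (66.8), Dcun1d5 (305), Flcn (81.2) and Il1rap (184) were next to E0771 as well, at 49.9, 40.2, 43.3, 201, 54.5 and 124 CPM, and Rps21 (184) next to PyMT-N (120), a difference not called with DESeq2 (log2 -0.61). Downward the differences from the nearest line were also small: the interferon-inducible Ifi203 stood at 3.39 CPM against 7.67 in AT3, Pla2g4a at 10.2 against 23 in E0771, and Tgfbr1 at 22.4 against 35.2 in T11. The DNA repair subunit Xrcc5 (7.71 CPM), and Isoc1 (11.3), Entpd5 (7.64) and Armc10 (14.5), lay below E0771, which stood at 13.2, 19.2, 12.2 and 23. Dclk1 (8.55) lay below AT3 (13.9).

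**Figure D4:**
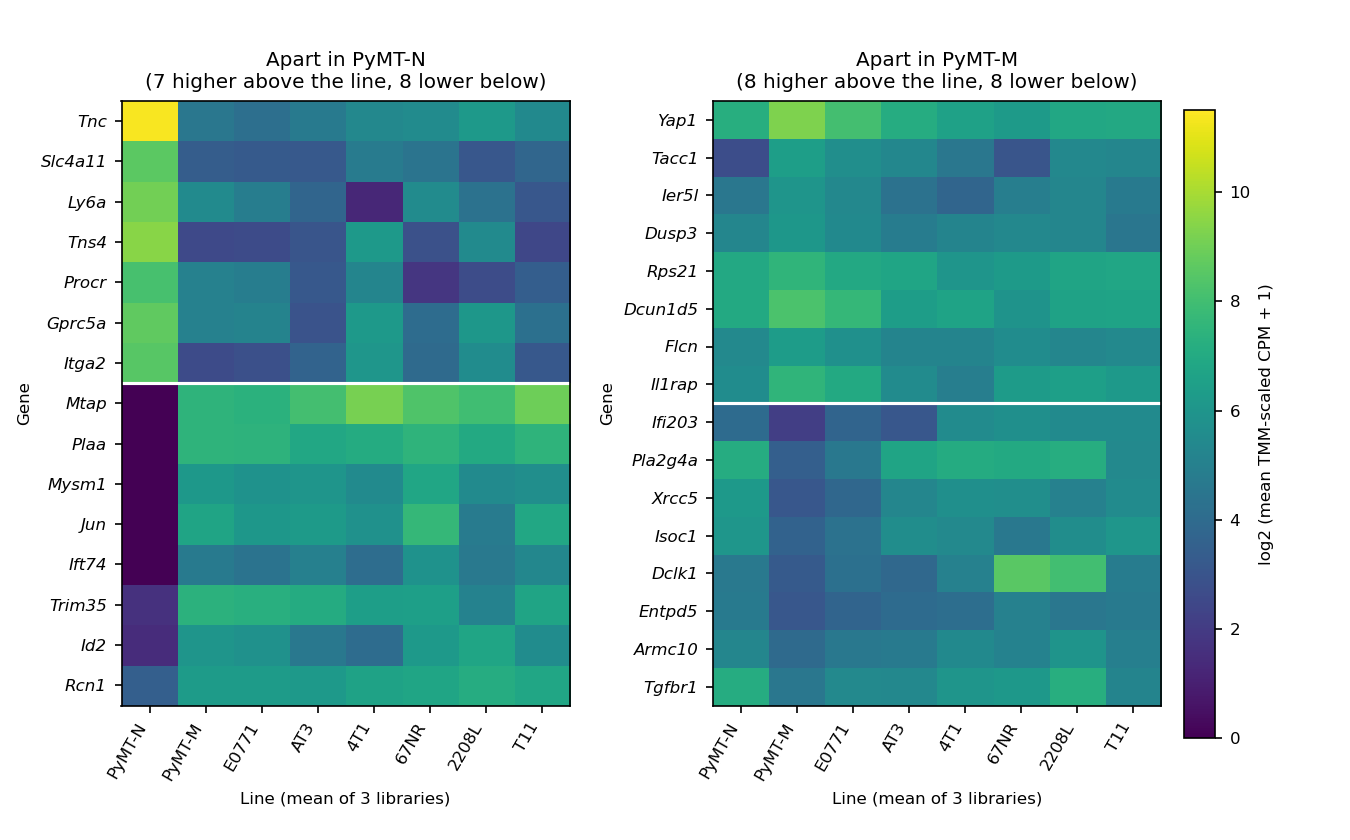
Heat maps of 15 of the genes furthest apart in PyMT-N (left) and 16 of those in PyMT-M (right) over the 8 lines, as log2 of the mean TMM-scaled CPM of 3 libraries plus 1; genes above the white line are higher and genes below it lower in the named line. The left map shows 1 bright or dark column for PyMT-N, while in the right map PyMT-M differs from E0771 by small steps.

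By position, genes of the X chromosome stood out. Over 572 X-linked genes 48.1% were higher and 17% lower in PyMT-N, with a median log2 difference of 0.67, against -0.05 over the 17977 genes with a position. Among genes of at least 16 CPM the medians were 0.56 and 0.09. The longest run of neighbouring genes called in 1 direction, genes of low level left out, was also there: 23 genes from Rps6ka3 to Erdr1 (159255665 to 170018797) were all higher. A stretch of 12 genes of the same chromosome, at another place (72918521 to 73930850), was lower instead, with a median of -1.57. Chromosomes 8 and 17 had the lowest medians, -0.34 and -0.32, and chromosome 14 the highest of the autosomes, 0.19. Other long runs were 21 higher genes on chromosome 6 (86524480 to 89362613) and 17 lower genes on chromosome 9 (31149557 to 36767622). The Yap1 stretch of chromosome 9 was mixed: Yap1 and its neighbours Tmem123 (99.9 against 466 CPM), Birc2 (33.2 against 76.5) and Dcun1d5 (124 against 305) were lower in PyMT-N, while Mmp3, Mmp10, Mmp13, Mmp1b and the apoptosis inhibitor Birc3 (16.1 against 5.81) between them were higher, and Mmp12 (log2 -1.62), Mmp1a (-1.40), Mmp8 (-1.20), Mmp27 (-2.12), Mmp20 (-1.30) and Mmp7 (-1.87), of low level, were lower. On chromosome 4, 9 genes with at least 10 CPM in PyMT-M had 0 counts in PyMT-N: Mtap, Caap1, Plaa, Ift74, Mysm1, Jun, Fggy, Nfia and Tm2d1, with starts from 89137370 to 98355370. Plaa and Mtap were at least 726-fold and 714-fold lower by the floor of 3 counts over the group. No gene met the same rule the other way round. With up to 3 counts allowed, 13 genes met it in PyMT-M and 11 in PyMT-N, 9 of the latter on chromosome 4. The kinase inhibitor genes Cdkn2a and Cdkn2b, on the same chromosome, had 0 counts in all 6 libraries.

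**Figure D5:**
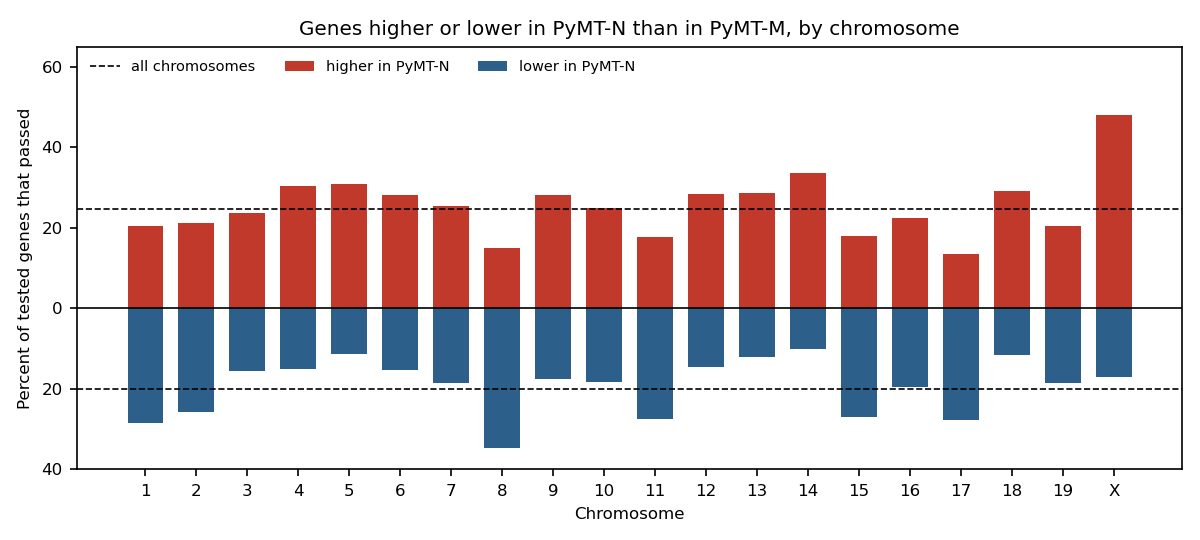
Share of the tested genes of each chromosome that were higher (red, above 0) or lower (blue, below 0) in PyMT-N than in PyMT-M, in percent; dashed lines mark the shares over all chromosomes. The X chromosome reaches 48.1% higher, and chromosome 8 has the largest share of lower genes.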

How the data were processed

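RNA-seq of cultured cells was read from 1 table of raw counts per gene, as the authors deposited it. Per the labels' protocols, total RNA was extracted with a column kit. Per the submitters' processing notes the tools were bcl2fastq 2.17 and STAR 2.4.2a and the build mm10; the counting program, annotation and strand setting are not given in the sources used here. Reads of near-identical or overlapping genes (keratins, H2, S100 and Hox genes, Xist and its antisense) can therefore not be separated. Rn45s is a row of the table and stayed in the library sizes; totals without it were an alternative. Columns of other series numbered 0.

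Genes were filtered by group (minimum count 10, total 15) with edgeR 4.0.16 in R 4.3.3, scaled with TMM factors, and tested with the quasi-likelihood test on the 24 libraries of the 8 lines, with Benjamini-Hochberg adjustment and calls below 0.05. Each standard error is the log2 difference divided by the square root of F, which understates the error where 1 line has few counts. Differences between pairs are interaction contrasts. Named genes were the 12 highest and 12 lowest log2 differences among calls whose mean log2 CPM reached 4 or more, with libraries that do not overlap, predicted models left out, 6 each way per pair difference, 8 each way for genes apart from each line, and per list up to 4 called genes each way with the genes of defining role. Some genes that meet this rule are not reported here. The members and lists were chosen with earlier results of these data known. Total counts per library ran from 2844038 to 6262942, and genes of a few CPM rest on few reads; counting intervals (95%) and floors (3 counts) cover counting error only. Positions are from RefSeq GRCm38.p6 by EntrezGene ID, matched for 23491 of 24054 genes. The main fit was also run on simulated data with far fewer changed genes than were called here. That run cannot check how the calls depend on the scaling, and its results are not reported here. Alternatives were DESeq2 1.42.0, other scalings, no low-count filter, the 6 libraries alone, the replicate number as a block, and leaving out each library.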

Additional observations from a re-analysis of the deposited data

Results flagged for a closer look

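The difference between PyMT-N and PyMT-M was tested against the difference within the other pairs by an interaction contrast in edgeR. Each value is the log2 difference of the PyMT pair minus that of the other pair, and the genes are the furthest apart by the naming rule. Against 4T1 and 67NR the values were 12.2 for Cadm1, 11.8 for Aqp5, 11.73 for Xist, 9.75 for Pcdh7, 8.81 for Epb4.1l3 and 8.57 for Ly6a. In the other direction they were -9.84 for Zfp275 and -9.14 for Scara3. Against 2208L and T11 they were 8.07 for Sox4, 7.82 for Ccbe1, 7.72 for Flrt2, 7.57 for Aqp5, 6.88 for Ptgs2, 6.87 for Epb4.1l3 and -6.29 for Id2.

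The genes with 0 counts in PyMT-N differed in the same test, but their fitted values depend on the prior count and are no bounds. Against 4T1 and 67NR these values were -13.26 for Mtap, -12.03 for Plaa, -9.81 for Jun and -9.74 for Mysm1. Against 2208L and T11 they were -11.95 for Plaa, -11.45 for Mtap, -10.89 for Mysm1, -9.54 for Jun and -8.96 for Ift74.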

How the results depend on the processing

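Between PyMT-N and PyMT-M the counts of calls stayed within 1.5 times under every alternative run, except for 6237 lower genes with totals outside Rn45s. DESeq2 called 4274 higher and 3329 lower, the 6 libraries alone 4250 and 3763. TMM factors from genes of at least 16 CPM gave 4066 and 4493, which turned the balance. Leaving out 1 library at a time, the libraries of the 6 other lines added after seeing the data, gave 4098 to 4570 higher and 3220 to 4372 lower. Totals outside Rn45s gave 2989 and 6925 for the PyMT pair against the 4T1 and 67NR pair, 682 and 1359 for PyMT-N apart from each line, 82 and 101 for PyMT-M apart, and 1110 and 374 for E0771 against PyMT-M. TMM factors from genes of at least 16 CPM gave 972 and 782, 100 and 108, and 856 higher for the last 3. The cause was not tested. Leave-one-out ranges, higher and lower, were 4598 to 4808 and 3506 to 3744 against the 4T1 pair, 3499 to 3656 and 3235 to 3342 against the 2208L pair, 1337 to 1586 and 264 to 438 for PyMT-N apart, 80 to 239 and 18 to 46 for PyMT-M apart, and 274 to 433 and 315 to 1106 for E0771. Genes without counts in PyMT-M numbered 0, 13 with up to 3 counts, and 1 with at least 5 CPM. For PyMT-N these numbers were 9, 11 and 10. For genes of at least 16 CPM the median was 0.56 on X and, reversed, 0.09 over all chromosomes. The replicate block gave 4486 higher and 3697 lower. Same-numbered libraries had deviation correlations of -0.147, 0.076 and -0.025, and other-numbered ones ran from -0.146 to 0.165. These few values show no pairing by number and cannot exclude one. Depth limits calls on genes of a few CPM.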

Other observations

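Surface, coagulation and guidance genes were not described above. Of 30 surface glycoproteins and tetraspanins 16 were higher in PyMT-N and 3 lower (median log2 difference 0.79), or 5 lower with totals outside Rn45s. Pdpn, podoplanin, stood at 164, 156 and 157 CPM against 1.24, 1.4 and 1.32, and the adhesion molecule Alcam at 289, 307 and 315 against 2.78, 3.85 and 4.62. Of 24 complement and coagulation genes 7 were higher and 7 lower. Among regulators of clotting, thrombomodulin, Thbd, was higher in PyMT-N (380, 429 and 433 CPM against 0.927, 2.1 and 2.64), and the tissue factor pathway inhibitor Tfpi was lower (3.02, 2.87 and 3.99 against 64.2, 68.6 and 82.9). None of these 4 genes had overlapping libraries, a trait whose share over all genes was not counted.

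Of 34 semaphorins, netrins, slits and their receptors 13 were higher and 10 lower, and 12 and 12 with totals outside Rn45s. The ligand Sema3c stood at 117, 128 and 141 CPM against 3.09, 4.55 and 2.97, while the receptor Plxnd1 stood at 8.25, 7.02 and 7.99 against 149, 137 and 98.4. Of 22 Notch pathway genes 7 were higher and 8 lower: the ligand Jag2 was higher (34.6, 39 and 35.4 CPM against 1.24, 2.45 and 4.29) and the receptor Notch1 lower (15.7, 14 and 21.7 against 74.7, 77.7 and 55.1).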
